A study of Mus musculus with 20 samples.

Results

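Cholesterol synthesis genes and known targets of the transcription factor SREBP2 were followed in mouse liver as 31 genes taken by symbol from the known pathway. All 31 were found among the 16115 genes of the deposited table, and all 31 passed the filter on low counts. By role they were 20 synthesis genes (8 of the mevalonate steps, 3 between squalene and lanosterol, and 9 between lanosterol and cholesterol), 4 regulators, 4 genes of uptake and intracellular transport, and 3 exporters. The question asked of them was whether the synthesis steps kept together across the study's groups, and how they compared with regulators, uptake and export.

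As background, the synthesis chain turns acetyl-CoA into mevalonate, isoprenoids, squalene, lanosterol and finally cholesterol, and hepatocytes are a main site of it in the body. When sterols in the endoplasmic reticulum are low, the escort protein Scap carries SREBP2, the product of Srebf2, to the Golgi, where it is cut and released to switch on the synthesis genes, whereas Insig proteins hold Scap back when sterols are plentiful. Oxysterols made from surplus cholesterol activate LXR receptors, which switch on the exporters Abca1, Abcg5 and Abcg8 and the ubiquitin ligase Mylip.

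RNA-seq had been run on livers of male mice at 18 months of treatment. Fanconi anemia is an inherited disorder of DNA repair with bone marrow failure, and Fancd2 encodes one of its central proteins. Mutants carried the genotype label d2-/- and received metformin (a glucose-lowering biguanide) together with oxymetholone (an anabolic androgen), oxymetholone alone, metformin alone, or no drug. Untreated wild-type mice were the fifth group, and no wild-type mouse received a drug, so each drug was seen on the mutant background only. The labels list 20 samples, and 18 were analysed: 3 with both drugs (the combination), 5 with oxymetholone, 3 with metformin, 3 untreated mutants and 4 wild type. Not analysed here were replicate 1 of the untreated mutants, replicate 2 of the metformin group, and Fancd2 itself. The labels give no strain, dose or batch and do not say that each library came from its own animal, so p-values measure the spread between these libraries.

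Libraries held between 20.2 M and 32.7 M counts. The liver label was checked against 9 hepatocyte markers found in the table of 10 listed; none was at 0, and their summed level was 46800 to 104000 CPM (counts relative to the size of the library, scaled by TMM factors) with the combination, 59600 to 83300 with oxymetholone, 43400 to 87900 with metformin, 68100 to 90300 in untreated mutants and 55200 to 92400 in wild type. Metformin replicate 3 and combination replicate 3 stood apart from the rest, with a median correlation of 0.926 and 0.916 with the other libraries over all genes, against 0.942 to 0.964 elsewhere. They held 237 and 13.1 CPM of the bile duct keratin Krt19 and 119 and 27.5 CPM of the smooth muscle actin Acta2, whereas no other library exceeded 3.66 and 2.81 CPM. By the summed level of 7 bile duct markers they held 655 and 677 CPM, but untreated mutant replicate 2 held 1470 CPM and oxymetholone replicate 4 held 423 CPM, against at most 268 CPM in the rest. Medians of the synthesis list, and the levels of members in which these 2 libraries were extreme, are given with and without them. Without untreated mutant replicate 2 the synthesis median against untreated mutants was -1.03 for the combination, -0.44 for oxymetholone and -0.77 for metformin. In whole liver, fewer cells of a type and less RNA per cell cannot be told apart.

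The stretch around the transcription start shows what many members share apart from their levels. RefSeq promoter windows (GRCm38.p6; 250 bases before to 50 bases after a start) were matched by symbol for 26 of the 31 members. CCAAT, the box bound by NF-Y, stood on either strand in 16 of 17 synthesis members with a window (94.1%) and in 7 of 9 other members (77.8%), against 42.5% of the 11503 genes of the expression table that had a window and 41.1% of all 27025 genes in the promoter table. The GC box GGGCGG, on either strand, was found in 15 of 17 synthesis members (88.2%) and 7 of 9 others (77.8%), against 64.4% of the 11503. TCACNCCAC, a form of the sterol regulatory element that SREBP binds, was found in 1 of 17 synthesis members, Hmgcs1 (5.88%), against 1.46% of the 11503; where a gene had several windows any of them counted. A match is a description of letters only. The windows shown are those of Hmgcs1 (chr13:119690101-119690400, plus strand) as the holder of that element, Msmo1 (chr8:64733529-64733828, minus strand) and Sc5d (chr9:42264251-42264550, minus strand) as the late synthesis genes with the smallest p under both drugs, Insig1 (chr5:28071162-28071461, plus strand) as the regulator that lay lower with them, and Abcg5 (chr17:84682962-84683261, minus strand) as an exporter. Capitals mark TCACNCCAC and CCAAT on either strand, so ATTGG is CCAAT read from the other strand.
Hmgcs1: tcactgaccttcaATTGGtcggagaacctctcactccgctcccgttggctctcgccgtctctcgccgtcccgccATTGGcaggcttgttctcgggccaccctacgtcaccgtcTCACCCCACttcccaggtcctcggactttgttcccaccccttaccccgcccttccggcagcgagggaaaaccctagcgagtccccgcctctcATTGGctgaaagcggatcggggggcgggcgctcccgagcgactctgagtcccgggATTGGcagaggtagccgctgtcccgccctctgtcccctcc
Msmo1: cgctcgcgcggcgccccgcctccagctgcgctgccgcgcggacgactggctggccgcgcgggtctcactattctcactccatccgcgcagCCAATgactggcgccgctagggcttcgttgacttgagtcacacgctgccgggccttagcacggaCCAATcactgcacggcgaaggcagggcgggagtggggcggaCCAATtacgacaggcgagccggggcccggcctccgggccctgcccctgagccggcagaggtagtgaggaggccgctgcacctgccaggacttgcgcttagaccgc
Sc5d: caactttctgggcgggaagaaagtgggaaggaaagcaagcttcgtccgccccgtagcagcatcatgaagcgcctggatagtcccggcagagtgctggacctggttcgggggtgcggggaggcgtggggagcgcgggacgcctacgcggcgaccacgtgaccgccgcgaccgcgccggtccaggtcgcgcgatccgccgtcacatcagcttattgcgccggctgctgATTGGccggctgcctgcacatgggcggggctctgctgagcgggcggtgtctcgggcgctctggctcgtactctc
Insig1: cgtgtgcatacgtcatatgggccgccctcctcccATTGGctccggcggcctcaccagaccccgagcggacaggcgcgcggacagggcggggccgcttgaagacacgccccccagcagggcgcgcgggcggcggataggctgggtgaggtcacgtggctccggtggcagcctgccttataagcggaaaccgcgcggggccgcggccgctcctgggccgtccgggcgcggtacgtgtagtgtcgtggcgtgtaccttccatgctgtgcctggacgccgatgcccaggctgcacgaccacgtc
Abcg5: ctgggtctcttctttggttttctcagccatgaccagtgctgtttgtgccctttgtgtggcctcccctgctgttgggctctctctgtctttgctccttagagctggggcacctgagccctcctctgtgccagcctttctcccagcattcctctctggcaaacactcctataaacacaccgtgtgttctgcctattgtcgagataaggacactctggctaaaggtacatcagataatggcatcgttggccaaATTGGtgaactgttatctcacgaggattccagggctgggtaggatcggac

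Hmgcs1 showed 4 CCAAT boxes, Msmo1 3, and Sc5d, Insig1 and Abcg5 1 each. The windows of Abcg5 and of the nearer of 2 starts of Abcg8, which lie head to head on opposite strands, share 209 bases.

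With both drugs, most synthesis genes lay lower than in untreated mutants, with similar group medians at every stage of the chain. Of the 20, 18 had a log2 difference below 0 (49.6% of all genes did), with a median of -1.05, or 0.484 of the untreated level, against a median of 0 over all genes tested. The medians were -1.04 for the mevalonate steps, -1.04 between squalene and lanosterol and -1.06 beyond lanosterol. Single libraries were less even, taken as the median log2 difference from the wild-type mean over the same stages. In that order, combination replicate 1 stood at -0.88, -0.84 and -0.74. Replicate 2 stood at -1.97, -1.95 and -1.29, and replicate 3 at -0.59, -0.76 and -1.24. In 13 of 20 every combination library was below every untreated mutant library, as in 3.95% of all genes, and 13 of 20 had an unadjusted edgeR p under 0.05 with a lower level, as in 1.88% of all genes. No member passed the adjusted threshold of 0.05 by the quasi-likelihood test of edgeR, adjusted over all genes after Benjamini and Hochberg (0 of 31, smallest adjusted p 0.648; 0.0186% of all genes passed). DESeq2 also called 0 members, and limma-voom called 1, Sc5d.

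**Figure D1:**
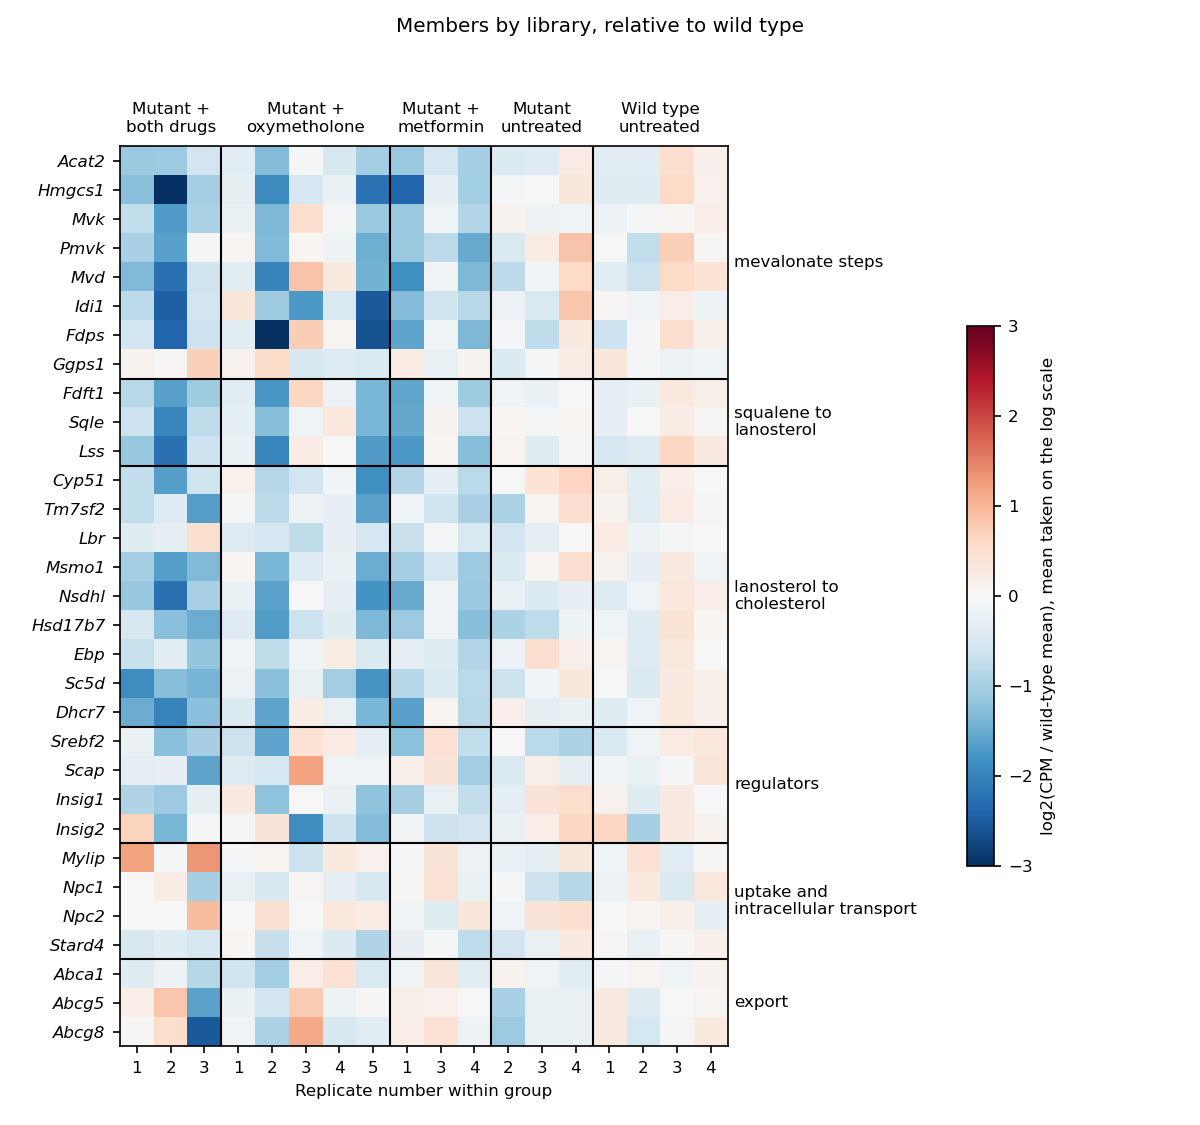
Each row is 1 of the 31 members and each column 1 of the 18 libraries; colour gives log2 of the CPM relative to the wild-type mean (blue lower, red higher), and black lines part groups and roles. Blue fills most synthesis rows in all 3 combination libraries, in oxymetholone replicates 2 and 5 and in metformin replicates 1 and 4, and Ggps1 and Lbr stay near white or turn pale red in the combination columns.

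Hmgcs1 (ENSMUSG00000093930), the cytosolic synthase that makes HMG-CoA, had the largest log2 difference of the mevalonate steps. It measured 226, 64.4 and 262 CPM with the combination, against 523, 544 and 682 CPM in untreated mutants. No library overlapped; the log2 difference was -1.66 ± 0.60 (SE) with an edgeR adjusted p of 0.821. Pmvk (ENSMUSG00000027952), phosphomevalonate kinase, measured 41.7, 26.6 and 79.2 CPM with the combination, against 61.3, 96.4 and 149 CPM in untreated mutants. Its groups overlapped through combination replicate 3, and the log2 difference was -1.06 ± 0.49. The thiolase Acat2, the kinase Mvk, the decarboxylase Mvd, the isomerase Idi1 and the synthase Fdps had log2 differences of -0.75 to -1.25.

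Ggps1 and Lbr had log2 differences above 0, unlike the other synthesis genes. Ggps1 makes geranylgeranyl diphosphate, a side branch used to anchor proteins in membranes, and measured 7.98, 7.55 and 12.1 CPM with the combination, against 5.54, 7.16 and 8.62 CPM in untreated mutants (log2 difference 0.37 ± 0.30, edgeR adjusted p = 0.998). Lbr encodes the lamin B receptor, a nuclear envelope protein with sterol reductase activity, and measured 7.63, 8.26 and 13.8 CPM with the combination, against 6.71, 8.15 and 10 CPM in untreated mutants (0.25 ± 0.26, edgeR adjusted p = 0.998). In both genes the groups overlapped and the highest library was combination replicate 3. Without that library and metformin replicate 3 the difference was 0.11 ± 0.33 for Ggps1 and -0.08 ± 0.24 for Lbr, so the sign for Lbr rested on it. Tm7sf2, the sterol reductase that shares its step with Lbr, had a log2 difference of -0.84 ± 0.43. Without Ggps1 and Lbr, a choice made after their values were seen, all 18 remaining synthesis genes lay below 0, with differences of -1.66 to -0.42.

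Among the steps that build the sterol rings, Sqle (ENSMUSG00000022351), squalene epoxidase, measured 115, 45.5 and 103 CPM with the combination, against 183, 170 and 184 CPM in untreated mutants. Every combination library was below every untreated mutant library, and the log2 difference was -1.02 ± 0.45 (edgeR adjusted p = 0.881). Squalene synthase, Fdft1, and lanosterol synthase, Lss, had differences of -1.04 and -1.12, again with no overlap.

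Among the members, the smallest p-values of the comparison belonged to steps beyond lanosterol. Sc5d (ENSMUSG00000032018), which desaturates lathosterol, measured 148, 222 and 206 CPM with the combination, against 346, 513 and 683 CPM in untreated mutants. All 3 combination libraries lay under the lowest untreated one, and the log2 difference was -1.42 ± 0.39 (edgeR adjusted p = 0.648). Limma-voom gave Sc5d -1.63 with an adjusted p of 0.0304, and its adjusted p ran up to 1 over the alternatives. Msmo1 (ENSMUSG00000031604), the methylsterol monooxygenase, measured 339, 219 and 273 CPM with the combination, against 509, 729 and 954 CPM in untreated mutants. The groups were apart, with a log2 difference of -1.40 ± 0.39 (edgeR adjusted p = 0.670). Dhcr7 (ENSMUSG00000058454), the reductase of the last step of one branch to cholesterol, measured 58.5, 40.8 and 69.1 CPM with the combination, against 181, 136 and 143 CPM in untreated mutants. Here too no library overlapped (log2 difference -1.45 ± 0.45, edgeR adjusted p = 0.776). Cyp51 (ENSMUSG00000001467), lanosterol demethylase, measured 251, 132 and 276 CPM with the combination, against 413, 552 and 645 CPM in untreated mutants (-1.29 ± 0.41). The isomerase Ebp and the dehydrogenase Nsdhl were apart from untreated mutants at -0.85 and -1.06, whereas Hsd17b7, the ketoreductase that acts after Nsdhl, overlapped at -0.42 ± 0.40.

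The same list was as low against wild type. Of 20 synthesis genes, 19 had a log2 difference below 0 (47.9% of all genes), with a median of -1.06; 13 had an unadjusted edgeR p under 0.05 with a lower level (2.61% of all genes), and 14 did not overlap with wild type (5.77%). EdgeR called 0 of 31 members (smallest adjusted p 0.309; 0.0248% of all genes), DESeq2 called 1, Sc5d, and limma-voom called 2, Sc5d and Dhcr7. Sc5d measured 148, 222 and 206 CPM with the combination, against 543, 399, 656 and 606 CPM in wild type, a log2 difference of -1.52 ± 0.37. This comparison shares the combination libraries with the one before it.

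**Figure D2:**
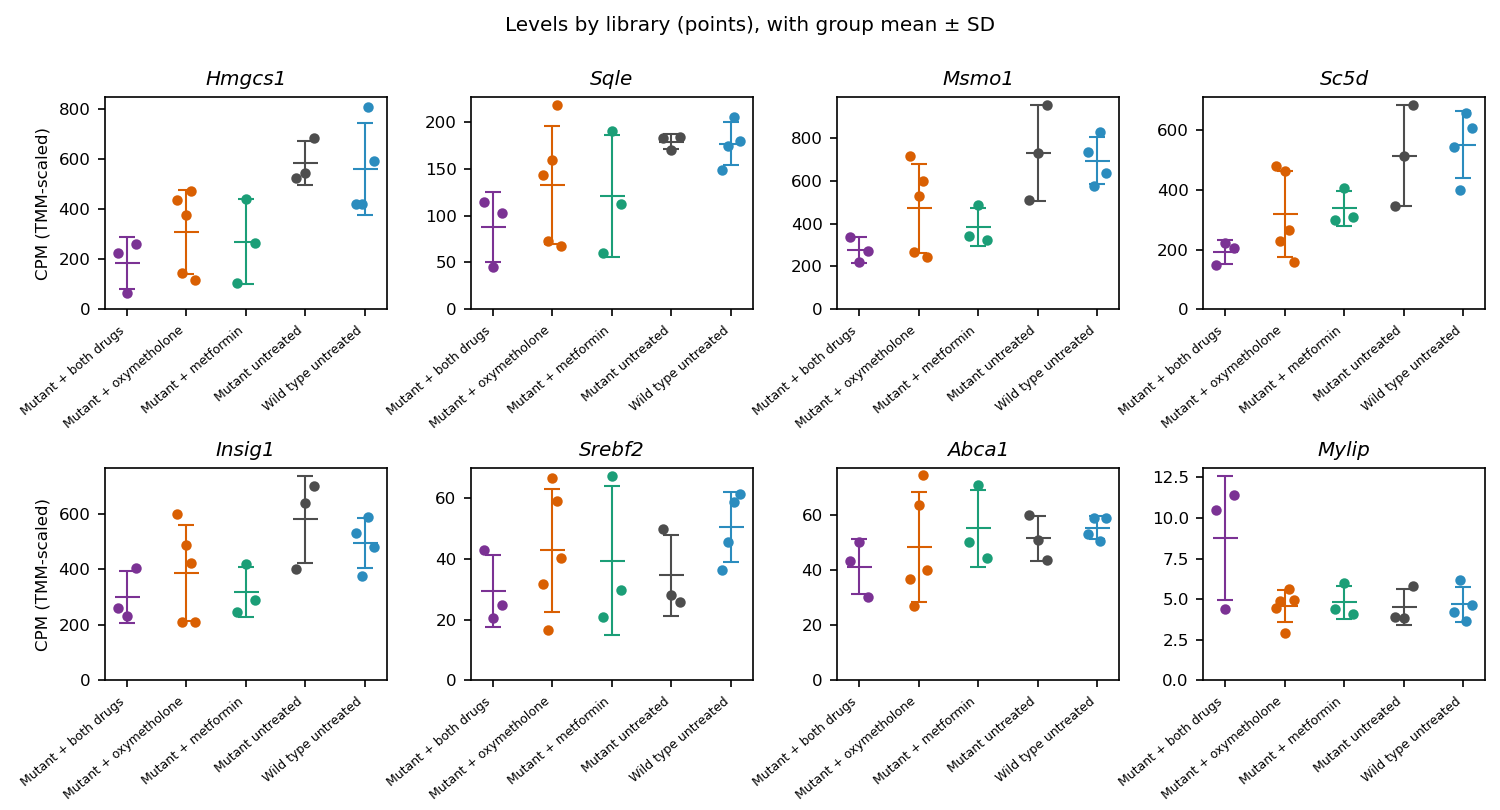
Level of 8 members in CPM (linear axes from 0) by group; points are libraries, and bars give the group mean ± SD. For Hmgcs1, Sqle, Msmo1 and Sc5d the combination points lie under all untreated mutant and wild-type points, whereas Srebf2 overlaps between all groups, Abca1 overlaps between every drug group and untreated mutants, and Mylip is high in 2 of 3 combination libraries.

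With oxymetholone alone, all 20 synthesis genes had a log2 difference below 0 (47.1% of all genes), but the differences were smaller and the libraries were spread widely. The median was -0.41 over the 20, against 0.03 over all genes tested. By stage it was -0.35 for the mevalonate steps, -0.41 between squalene and lanosterol and -0.42 beyond lanosterol. Hmgcs1 alone of the 20 did not overlap with untreated mutants (1.59% of all genes were lower without overlap), and Cyp51 alone had an unadjusted edgeR p under 0.05 with a lower level (2.03% of all genes). EdgeR called 0 of 31 members (smallest adjusted p 0.877; 0.0434% of all genes), as did DESeq2 and limma-voom.

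Cyp51 measured 458, 229, 279, 391 and 116 CPM in oxymetholone replicates 1 to 5, against 413, 552 and 645 CPM in untreated mutants. Only replicate 1 reached the untreated range (log2 difference -0.86 ± 0.35, edgeR adjusted p = 0.877). Sc5d measured 478, 229, 464, 264 and 159 CPM with oxymetholone, against 346, 513 and 683 CPM in untreated mutants, with replicates 1 and 3 inside the untreated range (-0.69 ± 0.33). Msmo1 measured 717, 266, 530, 601 and 245 CPM with oxymetholone, against 509, 729 and 954 CPM in untreated mutants (-0.63 ± 0.33). Sqle measured 143, 72.6, 160, 218 and 68.0 CPM with oxymetholone, against 183, 170 and 184 CPM in untreated mutants (-0.44 ± 0.40). In each of these genes the lowest oxymetholone libraries were replicates 2 and 5, and Sqle in replicate 4 exceeded every untreated mutant.

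That spread ran through the whole list. Scored as the median log2 difference of the 20 synthesis genes from the wild-type mean, oxymetholone replicates 2 and 5 stood at -1.33 and -1.45 and replicates 1, 3 and 4 at -0.21, -0.10 and -0.19. For single libraries, the share of all genes below every wild-type library was not computed. Of the 20 synthesis genes, 9, 6 and 0 were below it in untreated mutant replicates 2, 3 and 4. In oxymetholone replicates 2 and 5 the number was 19 and 20, against 6, 7 and 6 in the other oxymetholone libraries. These 2 libraries also had the lowest hepatocyte marker sums of the group, 59600 and 62800 CPM, against 74900 to 83300 CPM, and 509 and 421 CPM of 8 stellate and fibroblast markers, against 65.6 to 310 CPM; the part of either in the result was not tested. Combination replicate 2, the lowest library of all at -1.66, had the highest hepatocyte sum, 104000 CPM. Without oxymetholone replicate 2 the median difference from untreated mutants was -0.25 and without replicate 3 it was -0.63.

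**Figure D3:**
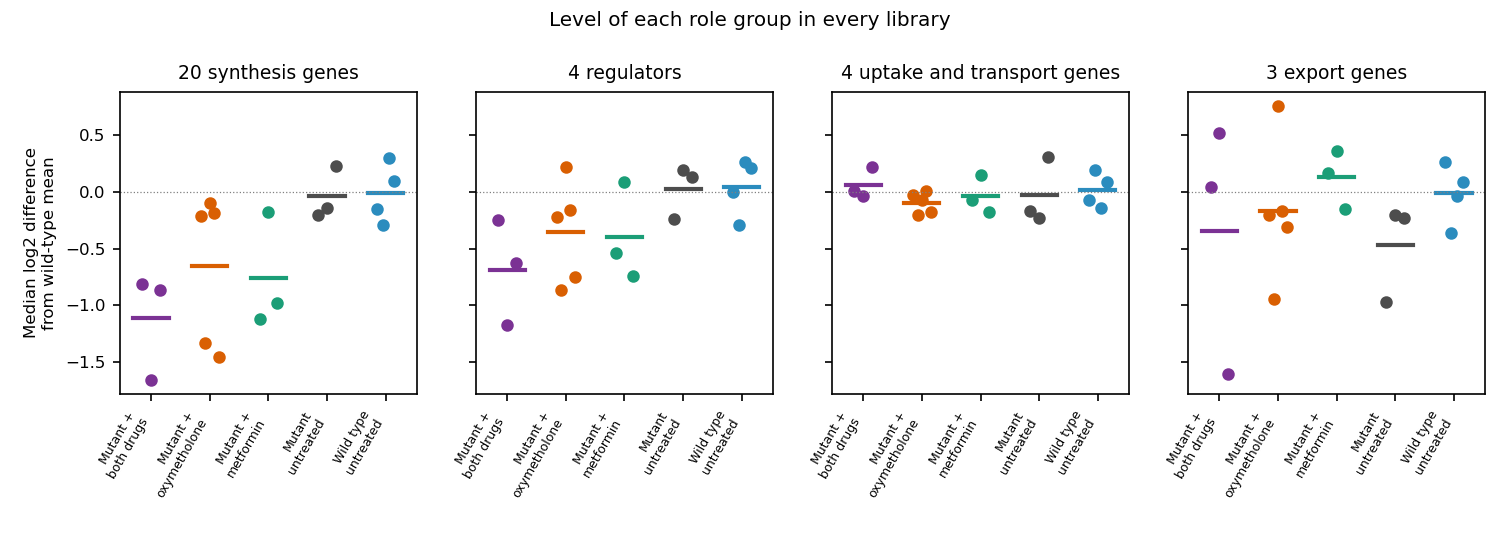
Each point is 1 library and gives the median log2 difference from the wild-type mean of the genes in a role group; bars are group means. All 3 combination points lie at or under -0.81 for synthesis, oxymetholone replicates 2 and 5 lie far under the other oxymetholone points, and uptake and transport genes lie close to the wild-type mean in every group.

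Metformin alone gave a median between those of oxymetholone and the combination. Of the 20 synthesis genes, 19 lay below 0 (46.1% of all genes), with a median of -0.67 against 0.04 over all genes tested. The median was -0.84 for the mevalonate steps, -0.68 between squalene and lanosterol and -0.53 beyond lanosterol. Without overlap, 7 of 20 were lower than in untreated mutants (3.32% of all genes), and 4 had an unadjusted edgeR p under 0.05 with a lower level (1.27%). EdgeR called 0 of 31 members and 0% of all genes (smallest adjusted p of a member 0.655), and DESeq2 and limma-voom called 0 members.

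Pmvk measured 37.9, 47.9 and 29.0 CPM in metformin replicates 1, 3 and 4, against 61.3, 96.4 and 149 CPM in untreated mutants. The groups did not overlap (log2 difference -1.42 ± 0.50, edgeR adjusted p = 0.655). Cyp51 measured 226, 347 and 236 CPM with metformin, against 413, 552 and 645 CPM in untreated mutants, also apart (-0.99 ± 0.41, edgeR adjusted p = 0.785). Msmo1 measured 342, 485 and 324 CPM with metformin, against 509, 729 and 954 CPM in untreated mutants (-0.93 ± 0.38, edgeR adjusted p = 0.786). Ebp was the fourth gene with an unadjusted p under 0.05 (-0.66 ± 0.29). Sqle measured 60.4, 190 and 112 CPM with metformin, against 183, 170 and 184 CPM in untreated mutants. Replicate 3 was above all of them while replicates 1 and 4 were below (-0.57 ± 0.45).

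Metformin replicate 3 was the highest of its group in most synthesis genes, with a score of -0.18, against -1.12 and -0.98 in replicates 1 and 4. It is the library with 237 CPM of Krt19 and 119 CPM of Acta2 described above; the part of that RNA in its score was not tested. Without it the median difference from untreated mutants was -1.06 and 12 of 20 genes had an unadjusted edgeR p under 0.05. The count also turned on an untreated library: without untreated mutant replicate 4 it was 0, without metformin replicate 1 it was 2 and without replicate 4 it was 1. With metformin replicate 3 and combination replicate 3 both left out, the medians were -1.05 for metformin, with 10 genes at an unadjusted p under 0.05, and -1.23 for the combination, with 14.

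**Figure D4:**
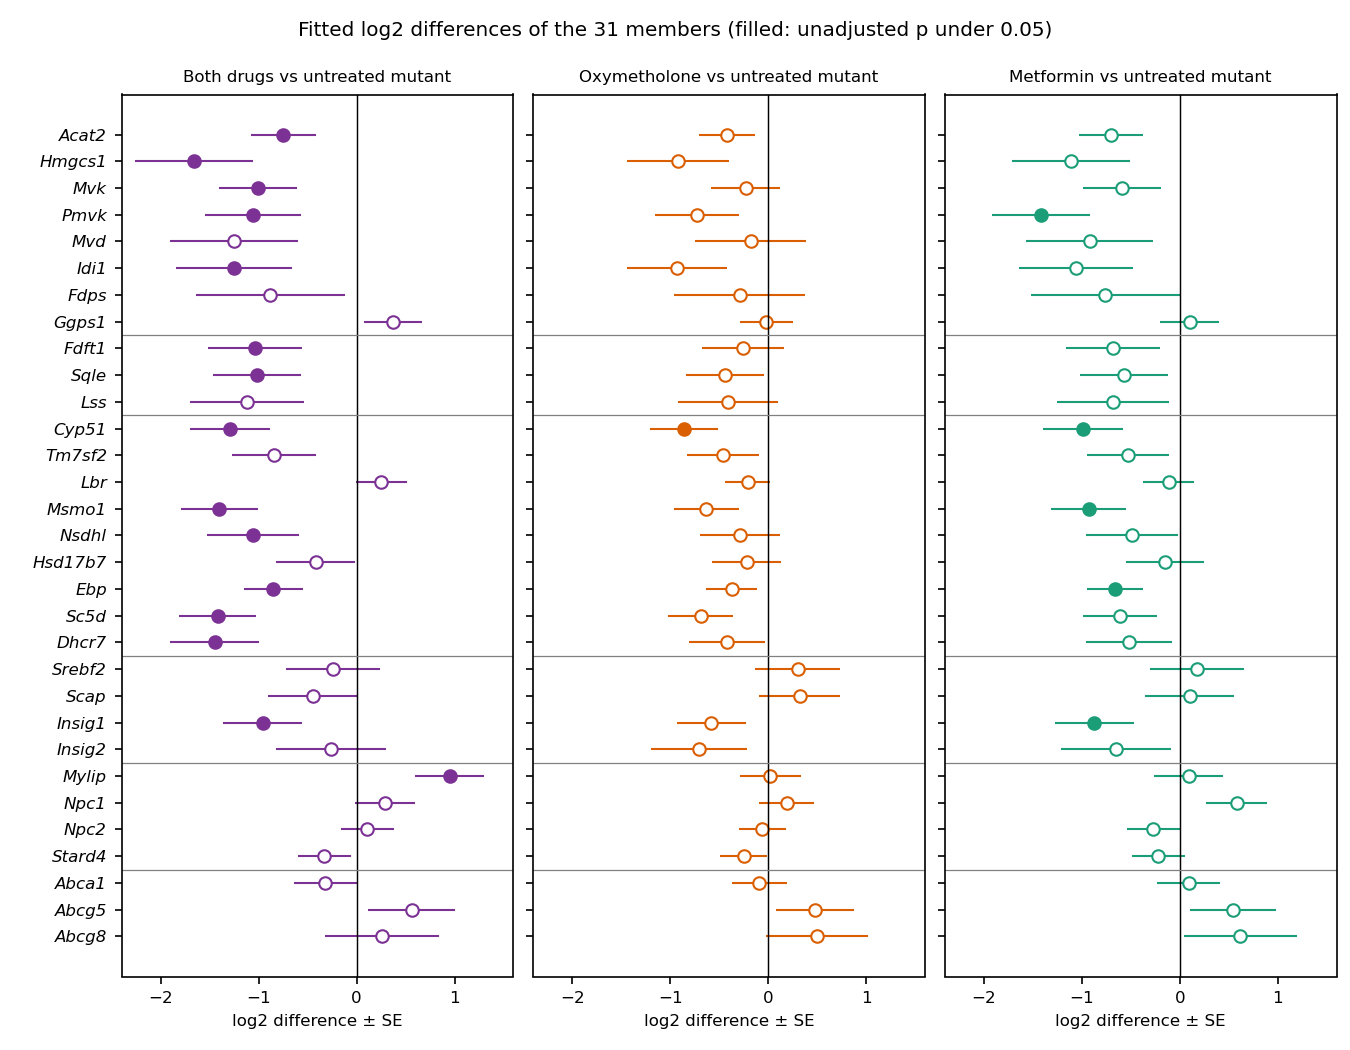
Fitted log2 difference of every member from untreated mutants, with bars of ± 1 SE, for the combination, oxymetholone and metformin; filled points have an unadjusted edgeR p under 0.05. Synthesis rows lie left of 0 in all panels, apart from Ggps1 with metformin and Ggps1 and Lbr with the combination, and rows of uptake, transport and export lie on both sides of it.

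All 3 drug comparisons share the untreated mutant libraries, so a high or low untreated library moves them together. Main effects use all mutants at once. Averaged over mutants with and without the other drug, the metformin main effect had a synthesis median of -0.68, with 18 of 20 genes below 0 (48.7% of all genes) and 11 at an unadjusted edgeR p under 0.05 with a lower level (1.34%). The oxymetholone main effect had a median of -0.35, with 18 of 20 below 0 (52.3%) and 4 at an unadjusted p under 0.05 (2.3%). EdgeR called 0 of 31 members for metformin (smallest adjusted p 0.553; 0% of all genes) and 0 for oxymetholone (0.629; 0.124%), as did DESeq2 and limma-voom. Leaving out single libraries moved the metformin count between 3, without combination replicate 2, and 14, without metformin replicate 3, and the oxymetholone median between -0.16, without metformin replicate 3, and -0.47.

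Whether the drugs together did more or less than the sum of each alone was tested as an interaction. EdgeR called 0 of 31 members (0% of all genes), DESeq2 and limma-voom called 0 members, and 0 synthesis genes had an unadjusted p under 0.05, as did 3% of all genes. The synthesis median of the interaction was 0.16 on the log2 scale and ran from -0.08 to 0.44 when single libraries were left out. Over all alternatives it reached 0.62. For Sqle the interaction was -0.02 (approximate 95% interval from its SE, -1.19 to 1.15) and for Msmo1 0.16 (-0.84 to 1.16). In the authors' deposited table, made by a test that no source used here names, the synthesis median was -1.20 for the combination, -0.72 for oxymetholone and -1.04 for metformin against untreated mutants, with 0 members at an adjusted p under 0.05. The authors' deposited table also sets the combination against each drug, with synthesis medians of -0.39 against oxymetholone and -0.11 against metformin and 0 members called. Its interaction had a synthesis median of 0.61, with 0 synthesis genes below 0 and 0 members called.

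Set against wild type, untreated mutants gave differences of both signs in the synthesis list. Of 20 genes, 13 lay below 0 (52.2% of all genes), with a median of -0.07 against -0.02 over all genes tested, 0 at an unadjusted edgeR p under 0.05 with a lower level (1.22%) and 0 without overlap (3.82%). EdgeR, DESeq2 and limma-voom called 0 of 31 members (0% of all genes by edgeR; smallest adjusted p of a member 0.973). The library scores were -0.20, -0.14 and 0.23 in untreated mutants, against -0.15, -0.29, 0.30 and 0.10 in wild type. Msmo1 shows the overlap, with 509, 729 and 954 CPM in untreated mutants, against 734, 578, 828 and 636 CPM in wild type.

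The smallest p-values of that comparison belonged to Npc1, Hsd17b7 and Srebf2. Npc1 (ENSMUSG00000024413), which moves cholesterol out of lysosomes, measured 34.2, 23.0 and 19.5 CPM in untreated mutants, against 31.4, 43.2, 26.2 and 43.7 CPM in wild type (log2 difference -0.50 ± 0.29, edgeR adjusted p = 0.973). Hsd17b7 (ENSMUSG00000026675) measured 76.4, 86.8 and 133 CPM in untreated mutants, against 135, 115, 194 and 154 CPM in wild type (-0.60 ± 0.38, edgeR adjusted p = 0.973). Both genes overlapped between the groups. Across the 5 groups the mean library score was -1.11 ± 0.48 (SD, n = 3) with the combination, -0.66 ± 0.67 (n = 5) with oxymetholone, -0.76 ± 0.51 (n = 3) with metformin, -0.04 ± 0.23 (n = 3) in untreated mutants and -0.01 ± 0.26 (n = 4) in wild type. The 3 drug groups lay within 1 pooled SD (0.49) of each other and more than 1 pooled SD under both untreated groups.

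Of the regulators, Insig1 and Insig2 had log2 differences below 0 in all 3 drug comparisons. Insig1 (ENSMUSG00000045294), which retains Scap in the endoplasmic reticulum and is itself an SREBP target, measured 261, 230 and 405 CPM with the combination, 600, 210, 488, 422 and 210 CPM with oxymetholone and 245, 419 and 290 CPM with metformin, against 402, 637 and 699 CPM in untreated mutants. Oxymetholone replicates 2 and 5 and metformin replicate 1 were low, as in synthesis, and combination replicate 3 overlapped with untreated mutants. The log2 difference was -0.96 ± 0.40 with the combination (edgeR adjusted p = 0.870), -0.58 ± 0.35 with oxymetholone and -0.87 ± 0.40 with metformin (edgeR adjusted p = 0.854). Wild type measured 530, 376, 586 and 481 CPM.

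Srebf2 (ENSMUSG00000022463), the gene of SREBP2 itself, measured 42.8, 20.6 and 24.8 CPM with the combination, 31.8, 16.5, 66.7, 58.9 and 40.2 CPM with oxymetholone and 21.0, 67.2 and 29.8 CPM with metformin, against 50, 28.1 and 25.7 CPM in untreated mutants. Every drug group overlapped with the untreated one, and the log2 differences were -0.24 ± 0.48, 0.30 ± 0.43 and 0.18 ± 0.48. The first of these turned positive, 0.12 and 0.13, with limma-voom and without untreated mutant replicate 2, and the metformin difference turned negative, -0.43, without metformin replicate 3 and combination replicate 3. Untreated mutants overlapped with wild type, which measured 36.4, 45.6, 58.6 and 61.3 CPM (-0.54 ± 0.46, edgeR adjusted p = 0.973). Scap had differences of -0.45 with the combination, 0.32 with oxymetholone and 0.10 with metformin, and oxymetholone replicate 3 held 131 CPM while the rest of that group held 39.5 to 52.8 CPM. Insig2, which is not raised by SREBP in the way Insig1 is, measured 308 to 1270 CPM with the combination, 218 to 1050 with oxymetholone, 519 to 744 with metformin and 689 to 1220 in untreated mutants. Its groups overlapped, and the log2 difference from untreated mutants was -0.26 ± 0.56 with the combination, -0.71 ± 0.49 with oxymetholone and -0.65 ± 0.56 with metformin.

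The 4 genes placed under uptake and transport were Mylip, Npc1, Npc2 and Stard4. None of them encodes a lipoprotein receptor, and Mylip acts against uptake, so their median is not a measure of uptake. As a group they did not share the lower level of synthesis, although Stard4 lay below 0 in all 3 drug comparisons. Their median log2 differences from untreated mutants were 0.20 with the combination, -0.02 with oxymetholone and -0.06 with metformin, and among all 11 members outside synthesis the medians were -0.24, 0.02 and 0.09. Of those 11, Insig1 was the only member lower at an unadjusted edgeR p under 0.05, in the combination and metformin comparisons, and Mylip was the only one higher, in the combination comparison (3.58% of all genes were). Mylip, a ubiquitin ligase that marks lipoprotein receptors for breakdown, measured 10.5, 4.38 and 11.4 CPM with the combination, against 3.91, 3.83 and 5.80 CPM in untreated mutants. Combination replicates 1 and 3 were above every other library of the study and replicate 2 was within the untreated range (log2 difference 0.95 ± 0.35, edgeR adjusted p = 0.821). Without combination replicate 3 and metformin replicate 3 it was 0.71 ± 0.37. Stard4, a carrier of cholesterol between membranes and an SREBP target, had differences of -0.33, -0.25 and -0.22. It measured 92.1, 98.9 and 90.8 CPM with the combination, against 130, 110, 131 and 142 CPM in wild type. Every combination library was thus below every wild-type library, as in 5.77% of all genes.

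Exporters lay on both sides of untreated mutants. Abca1 (ENSMUSG00000015243), which loads cholesterol onto lipoprotein particles, measured 43.3, 50.1 and 30.4 CPM with the combination, 36.8, 27, 63.8, 74.6 and 40.2 CPM with oxymetholone and 50.3, 70.9 and 44.3 CPM with metformin, against 60, 51.1 and 43.8 CPM in untreated mutants and 53.3, 58.8, 50.7 and 59.1 CPM in wild type. Every drug group overlapped with untreated mutants, whereas every combination library was below every wild-type library, as in 5.77% of all genes. Outside synthesis, Scap and Stard4 were below wild type in the same way. The log2 differences from untreated mutants were -0.32 ± 0.32 with the combination, -0.09 ± 0.28 with oxymetholone and 0.09 ± 0.32 with metformin, the last being -0.12 without metformin replicate 3 and combination replicate 3. Abcg5 and Abcg8 form the pump that sends sterols into bile. Abcg8 measured 48.9, 68.2 and 8.32 CPM with the combination, 43.9, 24.7, 105, 34.1 and 38.5 CPM with oxymetholone and 53.7, 64.0 and 42.8 CPM with metformin, against 22.4, 41.5 and 40.5 CPM in untreated mutants. Every metformin library was above every untreated mutant library in both genes, as in 3.94% of all genes, with differences of 0.54 ± 0.44 for Abcg5 and 0.62 ± 0.58 for Abcg8 (edgeR adjusted p = 0.927 for each). Combination replicate 3, one of the libraries that stood apart, held the lowest level of both genes, 12.6 CPM of Abcg5 and 8.32 CPM of Abcg8. The combination difference from untreated mutants was 0.56 for Abcg5 and 0.26 for Abcg8 with all libraries, and 0.97 ± 0.34 and 0.74 ± 0.48 without that library and metformin replicate 3. Without combination replicate 2 instead, it was 0 for Abcg5 and -0.29 for Abcg8.

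Synthesis genes tracked one another from library to library. As a description over the 18 libraries, the correlation of a member's log2 CPM with the mean of the other synthesis members was 0.962 for Nsdhl, 0.954 for Hmgcs1, 0.948 for Lss, 0.945 for Msmo1 and at least 0.618 for each of the rest except Lbr (0.324) and Ggps1 (-0.279). Outside synthesis it was 0.933 for Insig1, 0.775 for Stard4, 0.590 for Srebf2 and 0.472 for Abca1, and near 0 for Npc1 (-0.0225) and Abcg5 (-0.0693). These libraries share treatment, depth scaling and tissue makeup. The 5 genes outside the list with the highest correlation with the synthesis mean, of 16084 compared, were the retinol dehydrogenase Rdh11 (0.953), Gm3571 (0.921), Gm5873 (0.884), Gm6781 (0.877) and Sgsm1 (0.876).

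Among these genes Gm3571 and Gm5873 are processed pseudogenes whose transcripts match Fdps at 98.87% over 1062 bases and 96.717% over 1066 bases, and Gm6781 matches Fdft1 at 97.438% over 1249 bases, so reads may be split between copies and the levels of all 5 genes are uncertain. Acat2 matches Acat3 at 97.698% over 1477 bases, and Idi1 has pseudogenes Idi1-ps1 and Idi1-ps2. The counts of the longer same-strand copies were then added, a choice made after seeing the data. The combination difference from untreated mutants was then -0.74 ± 0.21 for Acat2 (edgeR adjusted p = 0.678), against -0.75 ± 0.33 alone. For Fdps it was -1.10 ± 0.63, against -0.88 ± 0.76 alone. Summed Acat2 and Acat3 lay at 208 ± 6.4 CPM (SD, n = 3) with the combination and at 346 ± 31.2 CPM (n = 3) in untreated mutants. Idi1 and Fdft1 gave -1.23 and -1.04 with their copies. Tm7sf2 matches Vps51 on the same strand at 100% over 532 bases, a shorter match, and those counts were not added. Where strand is not stated, antisense overlap of Fdft1 with Ctsb, Ggps1 with Arid4b, Acat2 with Tcp1 and Npc1 with Rmc1 could also mix reads.

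In all, 8 pairs of members were compared over the 18 libraries by permutation tests (100000 resamples, two-sided, adjusted over the 8). Here and below, libraries were shuffled over all groups, so a shared difference between groups can by itself give a small p. Correlations of deviations from group means were not tested. Sqle went with Insig1 (Pearson's r = 0.809, adjusted permutation p = 0.000133; Spearman's rho = 0.659, adjusted p = 0.00576; r = 0.775 without the 2 libraries farthest in Sqle). Sqle also went with Srebf2 (r = 0.707, adjusted permutation p = 0.00188; rho = 0.707, 0.00400; r = 0.603 without the 2 farthest). Deviations from group means gave r = 0.710 for Insig1 and 0.742 for Srebf2. Sqle with Stard4 (r = 0.532, rho = 0.511) and with Abca1 (r = 0.529, rho = 0.664) had adjusted permutation p of 0.0316 for r in each case and r of 0.706 and 0.782 without the 2 farthest. With deviations from group means, r was lower, at 0.362 for Stard4 and 0.462 for Abca1. Insig1 with Insig2 (r = 0.296, adjusted permutation p = 0.235; rho = 0.337, 0.197) and Abca1 with Mylip (r = -0.333, adjusted permutation p = 0.203; rho = -0.276, 0.269) did not pass.

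**Figure D5:**
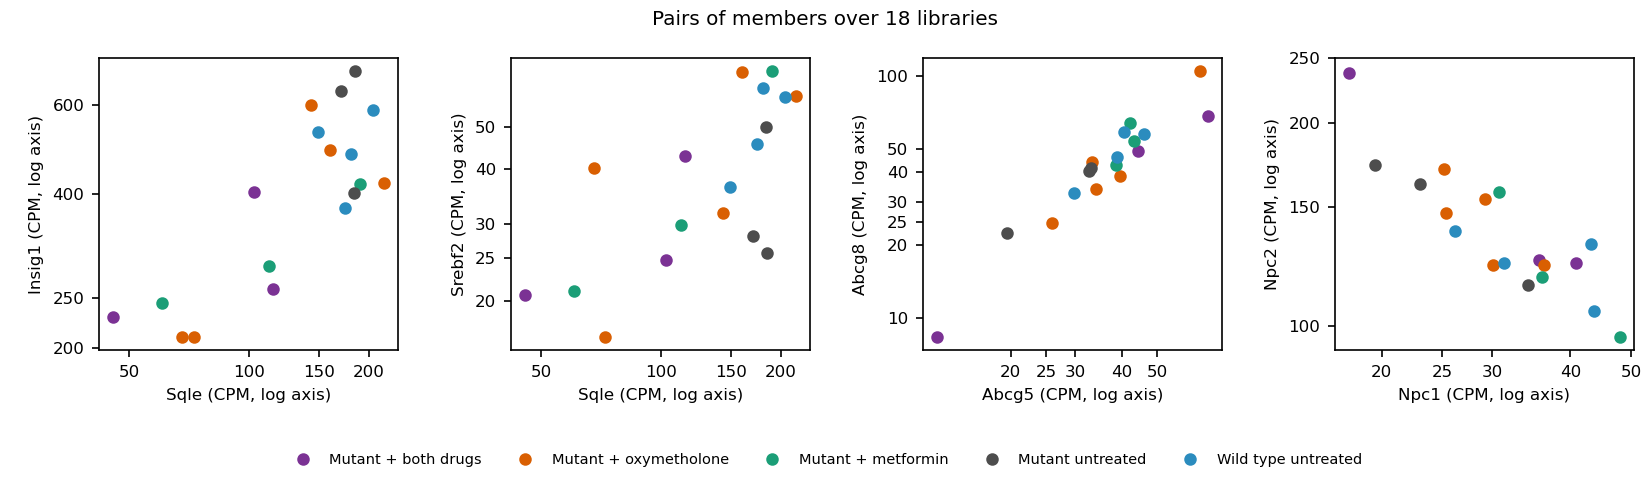
Each point is 1 of 18 libraries, coloured by group, with CPM of a pair of members on log axes. Insig1 and Srebf2 are high where Sqle is high, Abcg5 and Abcg8 lie along a line with 1 combination library far down it, and Npc2 is low where Npc1 is high.

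Abcg5 and Abcg8 kept together, with r = 0.954 (adjusted permutation p = 4e-05; unadjusted 1e-05, the smallest 100000 resamples can give; rho = 0.911, adjusted p = 8e-05) and r = 0.894 without the 2 farthest libraries. Npc1 and Npc2, which hand cholesterol to each other in the lysosome, went in opposite directions over the libraries (r = -0.884, adjusted permutation p = 4e-05, unadjusted again the smallest possible; rho = -0.839, adjusted p = 0.00012; r = -0.815 without the 2 farthest). Npc2 measured 125, 124 and 237 CPM with the combination, against 115, 162 and 173 CPM in untreated mutants, and the library with the most Npc2 had the least Npc1, 17.7 CPM. Beside this stands a measure of the balance of long and short transcripts, added after seeing the data. Log2 levels were first centred on each gene's mean. The measure was the median over 2508 genes with transcripts of at least 4000 bases minus that over 452 genes under 1000 bases. It correlated with Npc1 at r = 0.651 (adjusted permutation p = 0.0181; rho = 0.680, 0.0123; r = 0.521 without the 2 farthest) and with Npc2 at r = -0.563 (0.0377; rho = -0.540, 0.0562; r = -0.410), over 5 genes tried. For Sqle, Msmo1 and Insig1 it was 0.421, 0.0639 and -0.0135 (adjusted permutation p = 0.140, 0.957 and 0.957). The longest transcript was 5756 bases for Npc1 and 3299 bases for Npc2, so Npc2 was in neither the long nor the short class. The part of this balance in the opposite levels of Npc1 and Npc2 was not tested.

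Other genes of the pathway, listed beside the members, were near the background. Of 9 genes of SREBP processing (the Golgi proteases and the Insig-linked degradation machinery), 5 lay lower with the combination, 5 with oxymetholone and 4 with metformin, with medians of -0.09, -0.03 and 0.07. Medians of 8 genes of LXR and its targets were -0.01, 0.22 and 0.04, of 10 genes that use isoprenoids -0.08, -0.01 and -0.07, of 15 genes of cholesterol esters and lipoprotein handling -0.11, 0.17 and 0.09, and of 7 other sterol-responsive genes -0.26, 0.12 and -0.12. EdgeR called 0 genes of these 5 lists in the 3 comparisons, and by list 0 to 2 genes had an unadjusted p under 0.05, as did 5.46% of all genes with the combination, 4.8% with oxymetholone and 5.67% with metformin. Erg28, which holds the enzymes of sterol demethylation together in yeast, had differences of -0.87, -0.78 and -0.87 (edgeR adjusted p = 0.881, 0.877 and 0.847). Nceh1, a hydrolase of cholesteryl esters, had the smallest p of the 5 lists with the combination, at 1.32 ± 0.28 (edgeR adjusted p = 0.419), 0.90 ± 0.26 with oxymetholone and 0.78 ± 0.28 with metformin. Both were named after their values were seen.

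Liver sterol synthesis follows the daily clock and feeding, so genes of both were measured beside it. Of 17 clock genes found of 18 listed, 12 were higher than in untreated mutants with the combination (median 0.38; 50.4% of all genes were higher), 12 with oxymetholone (1.02; 52.9%) and 13 with metformin (0.64; 53.9%), and 15 were lower in untreated mutants than in wild type (-0.72; 52.2%). With oxymetholone 12 of the 17 had an unadjusted edgeR p under 0.05, 9 higher and 3 lower, against 4.8% of all genes and 1 of 20 synthesis genes. The count was 4 of 17 with the combination (5.46% of all genes) and 3 of 17 with metformin (5.67%), and edgeR called 0 clock genes in these comparisons. Their summed level was 149 to 550 CPM with the combination, 308 to 563 with oxymetholone, 277 to 407 with metformin, 212 to 305 in untreated mutants and 266 to 390 in wild type. Of 10 genes of fasting and feeding 9 were found, and they summed to 655 to 1620 CPM with the combination, 922 to 2020 with oxymetholone, 602 to 1410 with metformin, 517 to 794 in untreated mutants and 1130 to 1880 in wild type. Their part in the synthesis result was not tested. Bile duct markers (7 of 8 found) summed to 52.3 to 677 CPM with the combination, 43.5 to 423 with oxymetholone, 35.0 to 655 with metformin, 61.1 to 1470 in untreated mutants and 50 to 249 in wild type. Stellate and fibroblast markers (8 of 8) summed to 223 to 828 CPM with the combination, 65.6 to 509 with oxymetholone, 206 to 611 with metformin, 172 to 327 in untreated mutants and 164 to 332 in wild type. Immune markers (8 of 8) summed to 44.6 to 349 CPM with the combination, 72.5 to 269 with oxymetholone, 54.5 to 156 with metformin, 104 to 197 in untreated mutants and 85.1 to 483 in wild type. Endothelial markers (6 of 6) summed to between 43.8 and 92.4 CPM in every library, with ranges that overlapped between all groups.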

How the data were processed

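RNA-seq of mouse liver was deposited as 1 table with 16115 genes. Raw counts per gene and library were deposited by the authors without normalization, per the file headers. A second set, a CPM signal deposited by the authors, equals TMM-scaled CPM computed here to within 5.1e-11. The authors also deposited log2 residuals and, for 7 comparisons, log2 fold changes with p-values; the test behind them, the aligner, the counter, the strand setting and the annotation are named by no source used here. Per the submitters' processing notes the build was GRCm39.

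Counts were fitted with edgeR 4.0.16 in R 4.3.3 (TMM, filterByExpr, which removed 0 genes, robust quasi-likelihood, 1 coefficient per group over 18 libraries), with Benjamini-Hochberg adjustment over all genes and a threshold of 0.05; the biological coefficient of variation was 0.426. Depth was 20.2 M to 32.7 M counts, and no 2 replicates agreed within sampling noise (the lowest chi-square divided by its degrees of freedom was 70.3). Log2 CPM used a prior count of 2. Alternatives were DESeq2 1.42.0, its size factors in edgeR, no filter, a mean CPM of at least 1, the compared groups alone, limma-voom 3.58.1 with quality weights, leaving out libraries and the deposited residuals. Copies were found with blastn 2.17.0 (at least 95% identity over 250 bases) in GENCODE transcripts, and permutations run with SciPy 1.17.1. The fit was tested on simulated counts.

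Per-library values were given for Sqle, Insig1, Srebf2, Abca1 and the 3 members with the smallest p in each of 4 comparisons; other members with full values were chosen after their values were seen. The members and lists were chosen with earlier results of these data known. Replicate numbers follow the order of the sample records.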

Additional observations from a re-analysis of the deposited data

Results flagged for a closer look

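Among 62 combinations of a member and a group of 4 or 5 libraries, 1 held a library far from the others. Scap, the escort of SREBP2, measured 131 CPM in oxymetholone replicate 3, and the next highest library of that group had 52.8 CPM. On the log2 CPM scale this gap was 0.759 of the group's range. Chance alone would mark about 5% of such groups.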

How the results depend on the processing

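Of the values recomputed for the comparisons, 507 either kept their count or moved by less than 1 SD of the library scores and 3 counts of members moved. That SD, 0.49, is larger in size than the medians of oxymetholone (-0.41), its main effect (-0.35), the interaction (0.16) and untreated mutants against wild type (-0.07). For these the tally cannot show whether a median was kept, because a fall to 0 would stay within it. Of 260 recomputed synthesis medians 8 changed sign, all of medians near 0. Untreated mutants against wild type, -0.07, reached 0.05 over single libraries left out and 0.21 with the deposited residuals. The interaction, 0.16, ran from -0.08 to 0.62 over all alternatives. Of the values for named genes, 888 kept direction and side of the threshold, 1 passed the threshold and 15 reversed. Sc5d passed the adjusted threshold against untreated mutants under the combination with limma-voom (1 member called, -1.63), and against wild type with DESeq2 (1 member, Sc5d, -1.50, adjusted p = 0.0135) and limma-voom (2 members, Sc5d at -1.69 and Dhcr7 at -1.73, adjusted p = 0.0127 each); the cause was not tested. Srebf2 under the combination reversed to 0.12 with limma-voom and to 0.13 without untreated mutant replicate 2, in a range of -0.61 to 0.13 over single libraries left out. Srebf2 under metformin, 0.18, reversed to -0.45 without metformin replicate 3 and to -0.43 without it and combination replicate 3. Abca1 reversed under metformin to -0.01 with limma-voom, -0.01 without untreated mutant replicate 4, -0.13 without metformin replicate 3 and -0.12 without both libraries, and under oxymetholone to 0.03 without untreated mutant replicate 2 and 0.06 without oxymetholone replicate 2. Under the combination Lbr reversed to -0.05 with limma-voom, -0.06 without combination replicate 3 and -0.08 without both libraries, and without combination replicate 2 Abcg5 came to 0 and Abcg8 to -0.29; over single libraries left out these values reached 0.55 for Srebf2 and 0.23 for Abca1 under metformin, -0.30 for Abca1 under oxymetholone, and 0.42 for Lbr, 0.99 for Abcg5 and 0.75 for Abcg8 under the combination. The cause was not tested. Leaving out single libraries gave synthesis medians of -1.22 to -0.81 for the combination, -0.63 to -0.25 for oxymetholone, -1.06 to -0.52 for metformin and -0.22 to 0.05 for untreated mutants against wild type, and 0 members called by edgeR each time. Counts of synthesis genes at an unadjusted p under 0.05 ran from 6 (without combination replicate 2; 7 without untreated mutant replicate 4, 8 without untreated mutant replicate 3) to 14 for the combination, 7 (without combination replicate 2) to 16 for the combination against wild type, and 0 (without untreated mutant replicates 3 or 4 or oxymetholone replicate 2) to 4 (without oxymetholone replicate 1) for oxymetholone. With the deposited residuals, from which the authors had removed factors by a method not given here, the medians were -1.18, -0.73, -1.02 and 0.21. Other scalings moved the median of all genes by at most 0.037. No paired analysis was possible because the labels carry no replicate numbers, and those used here follow the order of the sample records. Every member was counted in every library.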
